A study of Mus musculus with 8 samples.

Results

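The RNA of serum exosomes was compared between mice carrying tumours of OSCA-40 and mice carrying tumours of OSCA-32, both of them canine cell lines of the bone cancer osteosarcoma. The comparison takes every library that the labels give to either line, 2 for OSCA-40 and 2 for OSCA-32, which is 4 of the 8 libraries of the series. All animals were NCr nu/nu mice, an athymic strain that lacks mature T cells and accepts grafts from other species. Those of the 4 tumour libraries received 100000 cells of one line, in 10 µl, into the tibia, and serum was taken at necropsy, at week 8. The other 4 libraries serve as background: 2 of serum at week 8 from mice given phosphate-buffered saline (PBS) in place of cells, and 2 of serum pooled from all mice at week 0, before injection. The serum of each group was pooled, so no value belongs to a single animal, and the labels used here give neither the age nor the number of the animals. With 1 cell line a side, a difference is one between 2 grafts and not between kinds of osteosarcoma. The labels do not state whether the paired libraries of a group came from separate pools of serum, and the p-values below cover the spread from library to library alone, part or all of which may be technical.

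Exosomes are small vesicles that form inside endosomes and are released when these fuse with the cell surface. They carry membrane proteins such as tetraspanins, and fragments of the RNA of the cell that shed them. In blood most vesicles come from platelets, red cells and other blood and vessel cells, and a tumour adds its own. Osteosarcoma arises from bone-forming cells and spreads mainly to the lung. A graft of dog cells in a mouse lets sequence tell graft RNA from host RNA, as far as the 2 genomes differ.

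Every library summed to between 977106 and 989183 deposited units over 31300 mouse and 20716 canine genes, so a deposited value is a share of its library, and the sequencing depth is unknown. The canine share differed between the lines, and the deposited value of the median tested mouse gene was 5 in both OSCA-40 libraries, 10 and 11 in the OSCA-32 libraries and 15 to 16 without a graft. Values were therefore scaled so that the bulk of the mouse genes was level, after which 1 deposited unit stood for 2.95 and 3.07 scaled units with OSCA-40 and for 1.45 and 1.41 with OSCA-32. Differences between the lines are given as OSCA-40 minus OSCA-32 on the log2(scaled value + 1) scale, with the standard error of the fit, and a gene was called at a Benjamini-Hochberg adjusted limma p under 0.05. This scale shrinks the differences of low genes, and for a gene at 0 in a line the size of the difference rests largely on the added 1. Most mouse genes with OSCA-40 rest on a few whole units. A gene at 0 is reported as listed at 0 only. Of 5 vesicle markers, Cd9 was well above the median gene in all libraries, whereas Cd63, Cd81, Tsg101 and Pdcd6ip were listed at 2 to 10 in the 4 tumour libraries.

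OSCA-40 serum held the larger share of RNA assigned to canine genes. Canine genes made up 68.4% and 70.7% of the OSCA-40 libraries, 44.7% and 43.3% of the OSCA-32 libraries and 14.7% to 17.4% of the libraries from mice without a graft. The groups did not overlap, and the means of 69.6% ± 1.62 (SD, n = 2) and 44.0% ± 1.03 (SD, n = 2) were 25.6 percentage points apart. The exact two-sided permutation test gave p = 0.333, the smallest p that the 6 splits of 2 against 2 libraries allow, so this design cannot pass 0.05. How much of the share came from the graft was not tested, since canine genes also held a share in mice without one. A share also depends on the amount of mouse RNA, which was not measured. For the part from the graft, more canine RNA from each tumour cell and more tumour cells cannot be told apart in such serum.

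**Figure D1:**
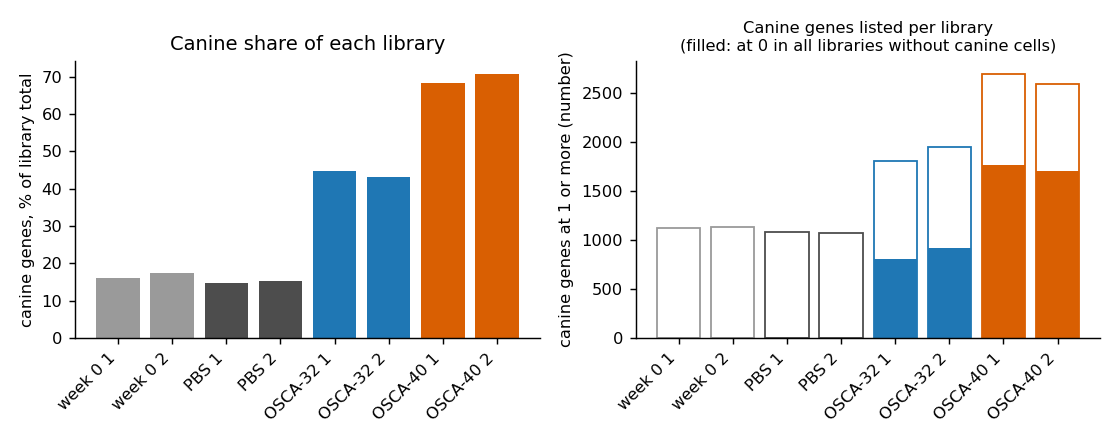
Bars give the canine share of the deposited total in percent (left) and the number of canine genes listed at 1 or more (right) for each of the 8 libraries, with the genes at 0 in all libraries without canine cells filled on the right. The OSCA-40 bars stand above the OSCA-32 bars in both panels, at 68.4% and 70.7% against 44.7% and 43.3%.

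Most of the canine total lay in a pair of genes that took opposite places in the lines. ENSCAFG00000030616 was listed at 564602 and 582489 with OSCA-40, at 0 and 13 with OSCA-32 and at 0 in the 4 libraries without a graft. ENSCAFG00000031490 stood at 8 in each OSCA-40 library and at 324687 and 311612 with OSCA-32, a difference of -14.15 ± 0.09 (limma, adjusted p = 5.88e-10). Without a graft it was listed at 42333 to 63599, so it was abundant in serum that held no canine cells, and the OSCA-40 values lay far below that background. The pair together held 57.1% and 58.9% of the OSCA-40 libraries against 33.0% and 31.7% of the OSCA-32 libraries. Each line thus had 1 of the pair at a level above all mouse genes and the other at a few units. No canine sequence was used here, so whether the pair's opposite places reflect how reads were assigned was not tested. With the 4 highest canine genes taken out of the sum and of the total, the canine share was 19.8% ± 1.31 (SD, n = 2) with OSCA-40 and 10.4% ± 0.168 (SD, n = 2) with OSCA-32, against 5.11% to 6.16% without a graft.

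The larger canine share was also seen in the number of canine genes. The OSCA-40 libraries listed 2697 and 2597 canine genes at 1 or more, and the OSCA-32 libraries 1807 and 1952. The difference was 767.5 genes, with exact permutation p = 0.333, again the smallest possible. Mouse genes went the other way, with 23575 and 23365 listed at 1 or more with OSCA-40 against 26706 and 27170 with OSCA-32. Which genes a library lists at 1 or more depends on the share left to that species, and the part of that share in the difference was not tested.

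The lines also differed over the canine genes that had no background. Of the 20716 canine genes, 19233 were listed at 0 in all 4 libraries without a graft. Of these, 1025 were at 1 or more in both OSCA-40 libraries, 356 in both OSCA-32 libraries and 314 in all 4. Among the 314, both OSCA-40 libraries exceeded both OSCA-32 libraries in 255, as deposited, and the reverse was seen in 0. Over all 217 canine genes tested, these shares were 34.1% above and 44.7% below. The 217 are an unlike set, since 135 of them stood at 10 or more in all 4 libraries without a graft. The median ratio of the deposited means of the 314 was 2.60. Their median deposited mean was 3.5 with OSCA-40 and 1 with OSCA-32, so the ratio rests on a few whole units. A further 443 of the 19233 were at 1 or more in both OSCA-40 libraries and at 0 in both OSCA-32 libraries, and 27 the reverse. The median level in either set was 1, and none reached 10 in both libraries. Of 1493 mouse genes at 0 in all 4 libraries without a graft, 22 and 11 had these patterns, in the same order. As a total, without ENSCAFG00000030616, the background-free canine genes held 0.500% and 0.464% of the OSCA-40 libraries and 0.180% and 0.165% of the OSCA-32 libraries. Per 10000 units of mouse RNA this was 158 and 159 units with OSCA-40 and 32.6 and 29.2 with OSCA-32.

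Of 217 canine genes tested, 67 were called higher with OSCA-40 (30.9% of those tested) and 2 lower (0.922%), 31.8% in either direction, relative to the bulk of mouse RNA in the same libraries. Scaled in this way, both OSCA-40 libraries lay above both OSCA-32 libraries in 163 of the tested canine genes (75.1%) and below in 15 (6.91%), and as deposited they lay above in 74 (34.1%) and below in 97 (44.7%). With library totals alone the split was 41 higher and 67 lower, so the direction of a canine gene depends on whether it is set against mouse RNA or against the whole library. Leaving out one OSCA-32 library at a time gave 37 and 28 higher genes, and leaving out one OSCA-40 library 41 and 44, with 2 lower each time. The 33 tested genes at 0 without a graft were all listed higher with OSCA-40 also as deposited, with a median log2 difference of 2.69 and 13 called. They passed the filter on low values through the tumour libraries alone, and so through the line in which they were high. Their number supports no share of all such genes, and their direction and size of difference are shaped by the filter. The 135 genes at 10 or more in all 4 libraries without a graft had a median difference of 0.53 on the scaled values but a log2 ratio of -0.47 as deposited, where both OSCA-40 libraries were below both OSCA-32 libraries in 82 of them and above in 18. A canine gene of that kind is listed in mice that carried no dog cells, so its values are not shown to come from the graft.

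**Figure D2:**
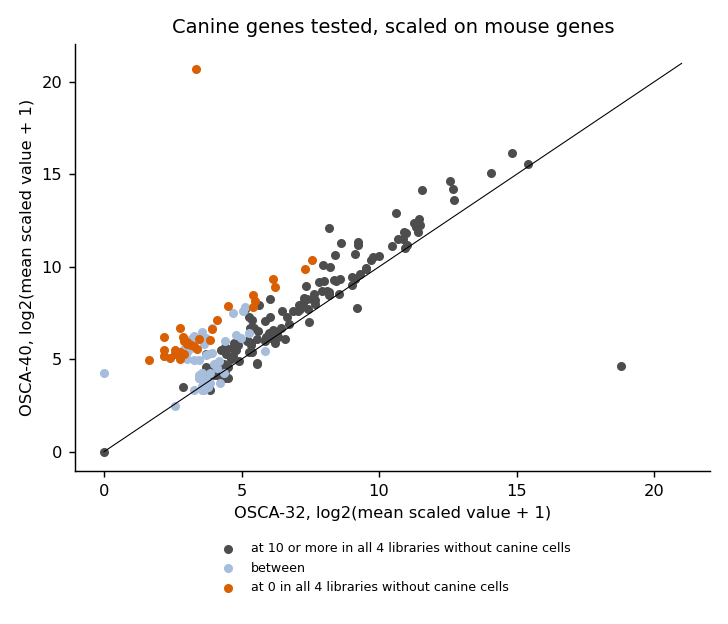
Each point is a tested canine gene, with log2(mean scaled value + 1) of the OSCA-32 libraries across and of the OSCA-40 libraries upward, coloured by its level in the 4 libraries without canine cells, and the line marks equal values. Genes at 0 without a graft lie above the line, but they passed the filter through the tumour libraries alone. The 2 points far from the line are ENSCAFG00000030616 at the top and ENSCAFG00000031490 at the right.

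A pair of further canine genes met the rule for named genes. ENSCAFG00000031012 was listed at 67 and 80 with OSCA-40, at 408 and 419 with OSCA-32 and at 880 to 1074 without a graft, and differed by -1.42 ± 0.10 (limma, adjusted p = 0.00101). As deposited, the OSCA-32 libraries lay between OSCA-40 and the mice without a graft, and the gene was called without each of the 8 libraries. ENSCAFG00000029931, called higher (limma, adjusted p = 0.032), was listed at 9 and 3 with OSCA-40 and at 0 with OSCA-32, but at 11 and 26 in PBS serum. It was thus listed in serum that held no canine cells, at deposited values as high as with OSCA-40, and it was called in 1 of the 8 fits that left out 1 library.

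Few of the tested mouse genes were called between the lines. Of 7655 mouse genes tested, 61 were called higher with OSCA-40 (0.797%) and 74 lower (0.967%), which together are 1.76%, and 1143 had an unadjusted limma p under 0.05. With 1.76% called, a short list of genes can hold no call, which is then no result about the list. The median difference over all mouse genes was -0.01, and the quartiles were -0.36 and 0.28. Both scaled OSCA-40 libraries lay above both OSCA-32 libraries in 20.2% of the tested genes and below in 20.3%, and as deposited in 0.614% and 76.9%. Over all tested mouse genes the SD of the log2 difference was 1.01 between the OSCA-40 libraries, 0.85 between the OSCA-32 libraries and 0.974 to 0.995 between libraries of different lines. Over all tested genes, libraries of different lines therefore differed by no more than the 2 OSCA-40 libraries did from each other. Among the 757 genes with a mean of at least 50 these SDs were 0.49, 0.38 and 0.476 to 0.632. Some libraries of different lines were thus further apart than those of a line. A fit limited to genes with such a mean called 83 mouse genes higher and 85 lower. The share called therefore depends on the level of the genes tested, and does not measure how alike the lines were.

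The called genes were often low. Of the 74 lower genes all 74 were also lower as deposited, where most tested mouse genes were, 11 stood at 0 in each OSCA-40 library and 29 at 5 or less in each. Of the 61 higher genes, 17 had both OSCA-40 libraries above both OSCA-32 libraries as deposited as well, and 24 had a higher deposited mean with OSCA-40. For the rest the direction rests on the scaling. With library totals alone, which leave the median mouse gene at -0.96, 14 mouse genes were called higher and 4516 lower. Leaving out 1 library moved every count: 25 to 27 higher and 26 to 32 lower without a PBS or week 0 library, 30 and 21 when the first OSCA-32 library was left out, and 21 and 12 when the second was. For the first OSCA-40 library the counts were 33 and 95, and for the second 33 and 103.

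**Figure D3:**
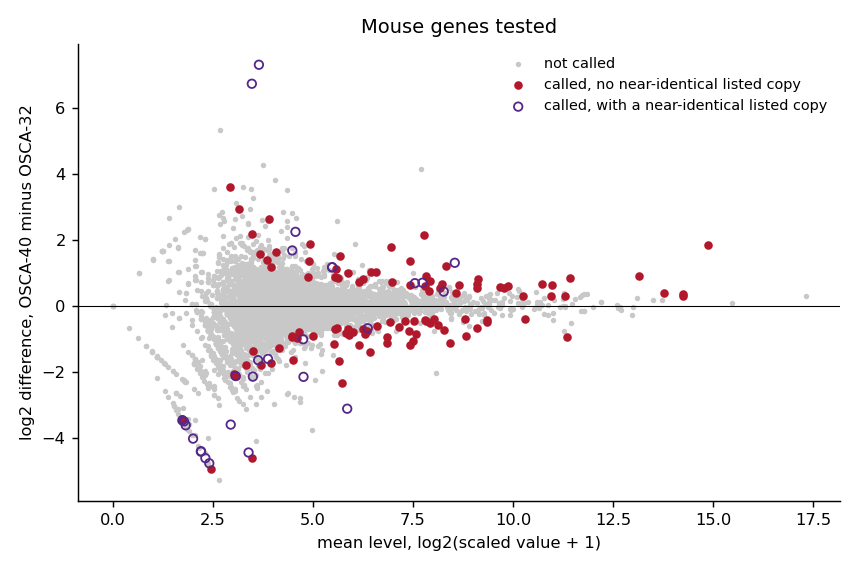
Each point is a tested mouse gene, with its mean level over the 2 lines as log2(scaled value + 1) across and its log2 difference, OSCA-40 minus OSCA-32, upward. The 135 called genes are coloured, the 28 with a near-identical listed copy as open circles, and the spread of all genes widens toward low levels.

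Platelet genes were among the higher ones. Pf4 (chromosome 5, 90772435 to 90773383), which encodes the chemokine platelet factor 4, was listed at 85 and 69 with OSCA-40, at 46 and 46 with OSCA-32 and at 39 and 30 with PBS. Its difference of 1.79 ± 0.26 (limma, adjusted p = 0.0181) had the same direction as deposited. Tmsb4x (chromosome X, 167207093 to 167209315), the actin-binding thymosin beta 4 and one of the most abundant platelet mRNAs, stood at 95 and 88 against 85 and 65, with 43 and 42 in PBS serum, a difference of 1.36 ± 0.14 (limma, adjusted p = 0.00507). Both OSCA-40 libraries exceeded both OSCA-32 libraries in these 2 genes before and after scaling. Without any 1 of the 4 tumour libraries Pf4 lost its call (limma, adjusted p of up to 0.102), whereas Tmsb4x kept it without each of the 8 libraries. With library totals alone the difference of Tmsb4x was 0.29 and no longer passed (limma, adjusted p = 0.109), and that of Pf4 was 0.72 (limma, adjusted p = 0.0444).

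The other platelet genes did not pass the test. Of 22 listed platelet and megakaryocyte genes 6 were tested, 2 of these were called higher and none lower, and the median difference was 0.96, beside -0.01 over all mouse genes. Gng11, a G protein subunit of platelets, was listed at 10 and 7 with OSCA-40 and at 5 and 6 with OSCA-32 (1.56 ± 0.33, limma adjusted p = 0.0648). Ppbp, the precursor of another platelet chemokine, was listed at 9 and 8 against 14 and 10 (0.56 ± 0.28, limma adjusted p = 0.376). The deposited values of the 22 genes summed to 291 and 252 with OSCA-40, 289 and 268 with OSCA-32 and 257 to 313 without a graft, so the sums of the lines overlapped as shares of the library.

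Haemoglobin showed 1 called gene. Hba-a2 (chromosome 11, 32296489 to 32297298), an alpha-globin gene, was listed at 194 and 196 with OSCA-40, at 157 and 173 with OSCA-32, at 184 and 189 with PBS and at 299 and 313 at week 0. The lines differed by 1.31 ± 0.07 (limma, adjusted p = 0.00059), and as deposited the OSCA-40 libraries were also the higher ones. Hba-a1, its neighbour, was listed at 12 and 20 against 18 and 11 and did not pass (1.17 ± 0.41, limma adjusted p = 0.223). The coding sequences of the pair, from GENCODE on GRCm38, differ at 1 of 426 bases, T381C, counted from the first base of the coding sequence, with Hba-a2 first. Positions 351 to 410 are shown because reads outside that base cannot be given to one of the pair by the coding sequence, and the capital marks the base that differs:
Hba-a2: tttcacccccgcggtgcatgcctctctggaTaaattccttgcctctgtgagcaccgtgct
Hba-a1: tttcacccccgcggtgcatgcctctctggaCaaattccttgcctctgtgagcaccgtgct
Summed, the pair gave 206 and 216 with OSCA-40 and 175 and 184 with OSCA-32, a difference of 1.30 ± 0.08 (limma, adjusted p = 0.000622), so the call did not depend on how reads were split between them. Hba-a2 differed by 0.23 with library totals alone (limma, adjusted p = 0.0351). The beta-globin genes did not pass: Hbb-bs was listed at 27 and 23 against 44 and 50 (0.15 ± 0.17, limma adjusted p = 0.707), and Hbb-bt at 9 and 18 against 10 and 17 (1.00 ± 0.46, limma adjusted p = 0.350). Of 13 tested red cell genes 1 was called higher and none lower, with a median of 0.15.

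Saa2 (chromosome 7, 46751790 to 46754313), a serum amyloid A protein that the liver makes in the acute phase, was called higher. It was listed at 11 and 13 with OSCA-40, 3 and 4 with OSCA-32, 7 and 10 with PBS and 4 and 5 at week 0. As deposited, OSCA-32 lay close to week 0, and OSCA-40 close to PBS. On the scaled values OSCA-40, at 32.4 and 39.9, lay above PBS, at 6.73 and 9.48. The lines differed by 2.63 ± 0.32 (limma, adjusted p = 0.0093). The call was lost (limma, adjusted p = 0.0507 to 0.0535) without either OSCA-32 library or the second OSCA-40 library. Its near relative Saa1 differs from it at 18 of 366 coding bases. Positions 90 to 149 of the coding sequences hold a cluster of these differences, marked in capitals, by which reads of the 2 genes can be told apart:
Saa2: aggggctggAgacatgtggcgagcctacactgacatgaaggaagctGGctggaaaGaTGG
Saa1: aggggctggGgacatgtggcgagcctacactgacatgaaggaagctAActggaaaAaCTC
Of 5 tested acute phase genes, Saa2 alone was called, and the median was -0.04. None of the 10 tested hepatocyte genes was called by limma, though 3 had an unadjusted p under 0.05, and their median was 0.49. Fabp1, the fatty acid binding protein of liver, was listed at 20 and 14 against 10 and 9 (1.81 ± 0.60, limma adjusted p = 0.197).

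Antigen presentation genes moved in both directions. B2m (chromosome 2, 122147686 to 122153083), the light chain of class I molecules, was listed at 16 and 15 with OSCA-40 and at 15 and 10 with OSCA-32, with 10 and 11 in PBS serum. The difference was 1.36 ± 0.25 (limma, adjusted p = 0.0396), the deposited values of the lines met at 15, and the call was lost without any 1 of the 8 libraries. H2-T24, a class I gene outside the classical ones, was listed at 23 and 15 against 13 and 8 (1.86 ± 0.29, limma adjusted p = 0.0235). H2-Q4, another such gene, was lower: it was listed at 50 and 44 with OSCA-40, 169 and 184 with OSCA-32 and 322 and 301 with PBS, a difference of -0.84 ± 0.08 (limma, adjusted p = 0.00391) that held without each of the 8 libraries and did not pass without a variance trend (limma, adjusted p = 0.0755). Of the 8 fits that each left out 1 library, none called B2m and 2 called H2-T24, with limma adjusted p of up to 0.130 and 0.0961. B2m differed by 0.31 with library totals alone and did not pass (limma, adjusted p = 0.278). The class I genes are close relatives, so their values can depend on how shared reads were assigned. The MHC class I list did not hold H2-T24. Of its 9 tested genes, 1 was called higher and 1 lower, with a median of 0.01. Limma called none of the 12 tested interferon-stimulated genes, of which 3 had an unadjusted p under 0.05, with a median of 0.16.

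**Figure D4:**
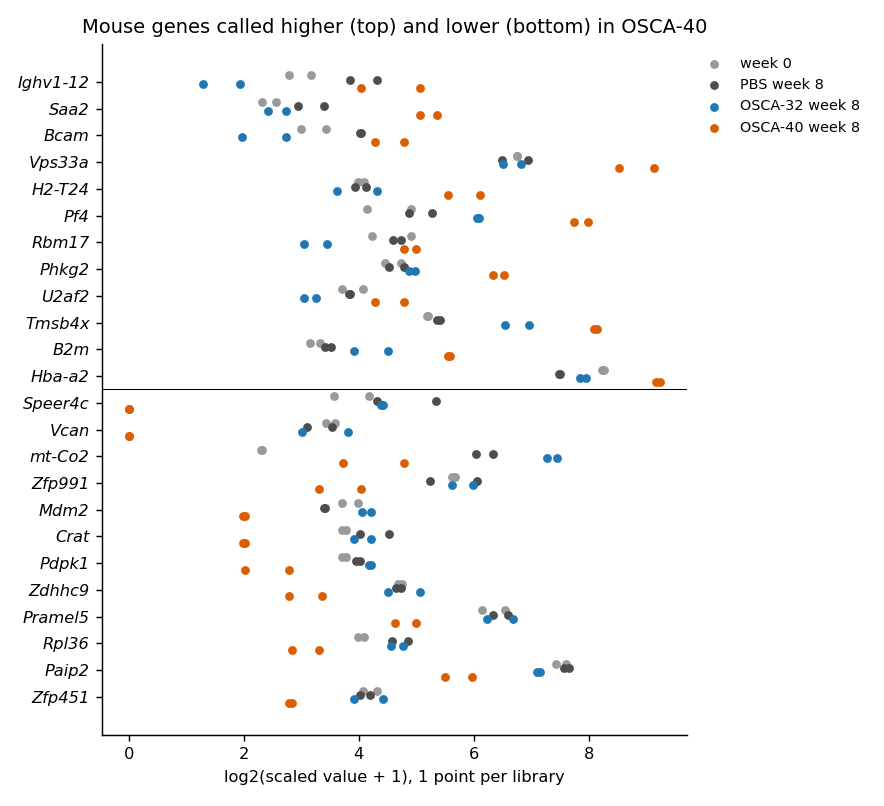
The log2(scaled value + 1) of 12 mouse genes called higher and 12 called lower with OSCA-40, with 1 point for each of the 8 libraries. By the rule that chose the genes, both OSCA-40 points lie on one side of both OSCA-32 points in each. Of all tested mouse genes 20.2% lay above and 20.3% below in this way. Speer4c and Vcan are at 0 with OSCA-40.

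The remaining higher genes with established names had varied roles. Vps33a, a subunit of the complexes that fuse vesicles with lysosomes, was listed at 190 and 119 with OSCA-40, 62 and 79 with OSCA-32 and 127 and 94 with PBS (2.16 ± 0.23, limma adjusted p = 0.00517). It was the highest-level gene of this set and lost its call only without the first OSCA-32 library. Phkg2, a catalytic subunit of phosphorylase kinase, was listed at 31 and 26 against 21 and 20 (1.51 ± 0.17, limma adjusted p = 0.00617). Bcam, a laminin-binding adhesion molecule of red cells and epithelia, was listed at 9 and 6 against 2 and 4, below its 16 and 16 with PBS as deposited (2.18 ± 0.36, limma adjusted p = 0.0291). The splicing factors Rbm17 and U2af2 were listed at 9 and 10 against 5 and 7, and at 9 and 6 against 5 and 6, respectively (limma, adjusted p = 0.0307 and 0.0499). Ighv1-12, an immunoglobulin heavy chain variable segment, was listed at 11 and 5 against 1 and 2 (limma, adjusted p = 0.0235), and it was the 1 called gene among 12 tested heavy chain segments, whose median was -0.51. Pecam1, an adhesion molecule of endothelium and platelets, was listed at 21 and 22 against 23 and 27, and so was higher on the scaled values alone (0.84 ± 0.15, limma adjusted p = 0.0378). With library totals alone its difference was -0.21, and Phkg2, Rbm17 and U2af2 no longer passed, at 0.44, 0.59 and 0.36. It was the 1 called gene of 12 tested endothelial genes, with a median of 0.24. Of the 8 fits that left out 1 library, 7 called Phkg2, 2 Rbm17 and 1 Ighv1-12, and none called Bcam, U2af2 or Pecam1, for which the limma adjusted p reached 0.165 in U2af2 and 0.140 in Pecam1. Without the second OSCA-32 library Phkg2 had a limma adjusted p of 0.0595, and without the first Vps33a had 0.0507.

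The lower genes included Cd9 (chromosome 6, 125460266 to 125494791), a tetraspanin and a usual exosome marker. It was listed at 29 and 26 with OSCA-40, 106 and 117 with OSCA-32, 208 and 192 with PBS and 198 and 234 at week 0. The difference between the lines was -0.94 ± 0.11 (limma, adjusted p = 0.00617) beyond the shift of all mouse genes, and the call was lost without the second OSCA-32 library (limma, adjusted p = 0.0595) or without a variance trend (limma, adjusted p = 0.0686). Of 12 tested vesicle component genes Cd9 was the only one called, and the median was 0.08. Cd81, a tetraspanin of the same family, was listed at 5 and 3 against 7 and 4 (0.56 ± 0.38, limma adjusted p = 0.522), and Pdcd6ip, which encodes the vesicle protein Alix, at 2 and 2 against 8 and 6 (-0.64 ± 0.30, limma adjusted p = 0.355).

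Wapl, Ltbp1 and Paip2 were lower at similar or higher levels. Wapl, which releases cohesin from chromosomes, was listed at 72 and 83 with OSCA-40, 328 and 374 with OSCA-32 and 1179 and 1112 with PBS (-1.11 ± 0.10, limma adjusted p = 0.00353), and held its call without each of the 8 libraries. Ltbp1, which binds latent TGF-beta in the matrix, was listed at 139 and 148, 471 and 486, and 1010 and 946 in the same groups (-0.67 ± 0.07, limma adjusted p = 0.00588). Paip2, a repressor of translation that binds poly(A)-binding protein, was listed at 15 and 20, 94 and 99, and 196 and 210 (-1.39 ± 0.15, limma adjusted p = 0.00594). In all of these the OSCA-32 libraries lay between OSCA-40 and PBS, as deposited. Without a variance trend Wapl and Ltbp1 did not pass (limma, adjusted p = 0.051 and 0.128). Without the second OSCA-32 library Ltbp1 lost its call (limma, adjusted p = 0.0543), and Paip2 lost it without either OSCA-32 library (limma, adjusted p of up to 0.0597). Wapl was the 1 called gene of 14 tested cell cycle genes, with a median of 0.01, and Ltbp1 the 1 called of 9 tested fibroblast and stroma genes, with a median of -0.35.

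Genes of bone and of the osteosarcoma list were mostly not called, and of all tested mouse genes 1.76% were. At that share, the number of calls in lists this short says little about the lists. Vcan (chromosome 13, 89655312 to 89742509), the matrix proteoglycan versican, was listed at 0 with OSCA-40 in each library, at 9 and 5 with OSCA-32 and at 11 and 8 with PBS (limma, adjusted p = 0.0277). It was the 1 called gene of 9 tested osteoblast and bone matrix genes, whose median was 0.06. Sparc, or osteonectin, was listed at 3 and 4 against 26 and 14 (-1.31 ± 0.35, limma adjusted p = 0.124), and Alpl, the alkaline phosphatase of bone, at 2 and 2 against 9 and 14 (-1.29 ± 0.33, limma adjusted p = 0.113). Mdm2, which marks p53 for degradation, was listed at 1 and 1 with OSCA-40, 12 and 11 with OSCA-32 and 10 and 10 with PBS (-2.12 ± 0.29, limma adjusted p = 0.0141). It was the 1 called gene of 16 tested osteosarcoma-linked genes, with a median of 0.01. Mdm2 lost its call without either OSCA-32 library (limma, adjusted p of up to 0.0819), and Vcan was called in 2 of the 8 fits that left out 1 library (limma, adjusted p of up to 0.111). These are mouse genes, so they describe RNA assigned to the host. Limma called none of 6 tested osteoclast genes, 1 of which had an unadjusted p under 0.05.

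Several lower genes stood at 1 to 3 units with OSCA-40. Crat, carnitine acetyltransferase, was listed at 1 and 1 against 12 and 10 (-2.06 ± 0.29, limma adjusted p = 0.0173), and Pdpk1, a kinase that activates Akt, at 2 and 1 against 12 and 12 (-1.78 ± 0.31, limma adjusted p = 0.0339). Zdhhc9, a palmitoyltransferase, was listed at 2 and 3 against 15 and 23 (-1.72 ± 0.27, limma adjusted p = 0.0249), and Zfp451 at 2 and 2 against 14 and 10 (-1.36 ± 0.26, limma adjusted p = 0.048). The PBS libraries held 15 to 27 units of these 4 genes, so the OSCA-32 values lay nearer to PBS. Pramel5 was listed at 8 and 10 against 51 and 72 (-1.65 ± 0.22, limma adjusted p = 0.0139). Of the 8 fits that left out 1 library, 6 called Pramel5, 4 Crat, 1 Pdpk1, 1 Zdhhc9 and 0 Zfp451, with limma adjusted p of up to 0.0773, 0.0912, 0.141, 0.120 and 0.173. A single unit is a large part of such values, and the precision behind it is unknown.

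Many of the largest differences were in genes with a near-identical copy. Of the 135 called mouse genes, 28 had another listed transcript that matched at 98% identity or more over at least 150 bases and 30% of the gene's length. Among the 18 called genes with an absolute difference of 3 or more, 13 had such a copy. Copies were sought for called genes and mitochondrial mRNAs alone. The share of all tested mouse genes with a copy is thus unknown, and these counts have no background. When each gene was summed with its copies and fitted again, 8 of the 28 were still called, 20 were not and 6 turned sign, and the median absolute difference went from 2.19 to 0.40. Summing measures the total of a family, so a member that truly differs can be hidden in it. Of the 10 higher genes with a copy, 7 kept their call, and of the 18 lower ones 1, Ranbp2-ps8. This check was added after the data were seen.

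The mitochondrial gene mt-Co2 was called on its own and not in sum with its copy. mt-Co2 (mitochondrial chromosome, 7013 to 7696), which encodes subunit 2 of cytochrome c oxidase, was listed at 9 and 4 with OSCA-40 and at 106 and 122 with OSCA-32. Gm28661 (chromosome 1, 24614885 to 24615565, minus strand), a nuclear copy, was listed at 57 and 47 with OSCA-40 and at 0 in both OSCA-32 libraries. The 681 bases of the 2 transcripts are identical throughout, and their first 60 bases, from GENCODE on GRCm38, are shown because no read inside them can be assigned to one gene by its sequence; no base is in capitals since none differs:
mt-Co2: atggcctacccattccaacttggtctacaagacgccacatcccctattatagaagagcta
Gm28661: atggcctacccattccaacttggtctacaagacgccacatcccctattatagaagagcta
Alone, mt-Co2 was called lower (-3.10 ± 0.32, limma adjusted p = 0.00484), and not without the second OSCA-32 library (limma, adjusted p = 0.0595). Summed, the pair was listed at 66 and 51 with OSCA-40, 106 and 122 with OSCA-32, 67 and 85 with PBS and 28 and 32 at week 0, and the lines differed by 0.10 ± 0.16 (limma, adjusted p = 0.813). The fall of mt-Co2 and the rise of Gm28661 were thus each called alone and left no call in their sum.

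**Figure D5:**
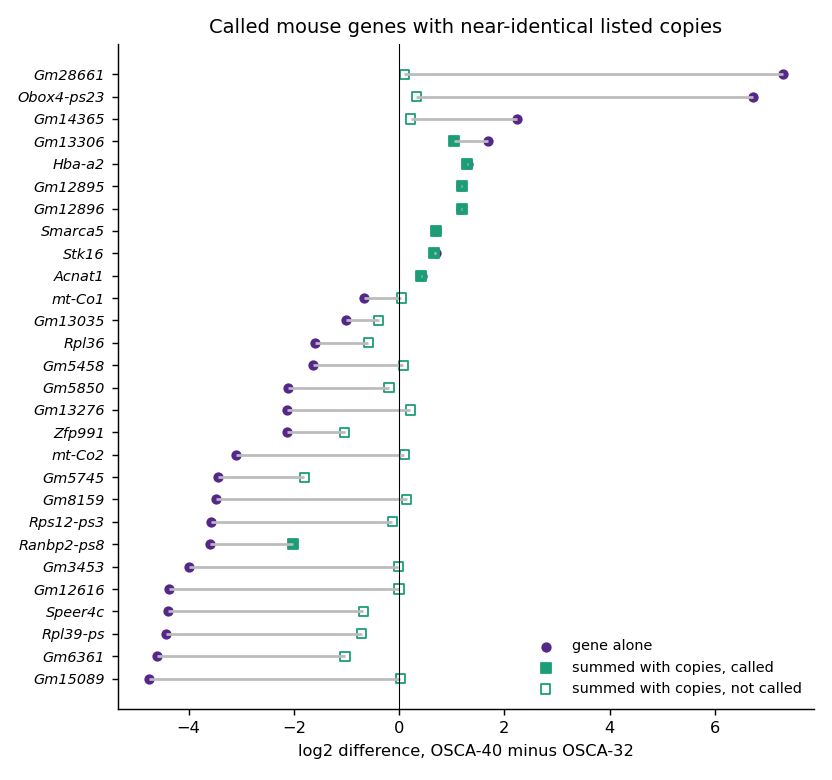
Log2 difference, OSCA-40 minus OSCA-32, of the 28 called mouse genes with a near-identical listed copy, alone (circles) and summed with their copies (squares, filled where called). Of the summed values 8 are called, and the longest line belongs to Gm28661.

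The mitochondrial mRNAs carry the parts of the respiratory chain encoded in the organelle. Of 13, all tested, mt-Co2, mt-Nd1 and mt-Co1 were called lower alone and 0 higher, with a median of -0.19. Of the 7 with a nuclear copy none was called when summed, and mt-Co1 then differed by 0.04 ± 0.15 (limma, adjusted p = 0.928). mt-Nd1, a subunit of complex I with no such copy, was listed at 10 and 10 with OSCA-40, 47 and 48 with OSCA-32 and 29 and 39 with PBS (-1.15 ± 0.21, limma adjusted p = 0.041), and lost the call, as mt-Co1 did, without any 1 of the 8 libraries (limma, adjusted p of up to 0.159 and 0.149). As deposited, the 13 mRNAs summed to 380 and 350 with OSCA-40 and 996 and 715 with OSCA-32, against 514 and 673 with PBS and 168 and 198 at week 0. Limma called none of 18 tested nuclear genes of the respiratory chain, 3 of which had an unadjusted p under 0.05, with a median of 0.17.

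Speer4c, Zfp991 and Rpl36 also lost their calls in sum with their copies, and kept their direction. Speer4c, a gene of a testis-expressed family, was listed at 0 in each OSCA-40 library and at 14 and 14 with OSCA-32 (limma, adjusted p = 0.00386). With its copy Speer4d it summed to 15 and 16 against 51 and 54, and no longer passed (-0.68 ± 0.14, limma adjusted p = 0.0721). Zfp991, a zinc finger gene, was listed at 3 and 5 against 43 and 34 (-2.14 ± 0.33, limma adjusted p = 0.0235), and differed by -1.03 ± 0.22 (limma, adjusted p = 0.0728) with its 3 copies. Rpl36, a ribosomal protein gene, was listed at 3 and 2 against 18 and 16 (-1.60 ± 0.24, limma adjusted p = 0.0214), and differed by -0.58 ± 0.32 (limma, adjusted p = 0.428) with its copies. Alone, Zfp991 was called in 3 and Rpl36 in 1 of the 8 fits that left out 1 library, with limma adjusted p of up to 0.127 and 0.109. Rpl36 was the 1 called gene of 48 tested cytosolic ribosomal protein genes, with a median of 0.01.

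Of the 8 mouse genes at the highest level, 4 were called higher. Gm10800, at 64360 and 56860 with OSCA-40 and 100332 and 105580 with OSCA-32, did not pass (0.30 ± 0.08, limma adjusted p = 0.124), nor did Gm10801, Gm17132 and Gm42857. Gm29013 was listed at 22540 and 15956 against 12660 and 9566 (1.85 ± 0.29, limma adjusted p = 0.0243), and was higher as deposited too, though with library totals alone its difference of 0.78 did not pass (limma, adjusted p = 0.0576). Gm10719, Gm10718 and Tlr1 were called higher by 0.29, 0.36 and 0.40, and lower by 0.78, 0.72 and 0.68 with library totals alone, so their direction depends on the scaling. Of the 8 fits that left out 1 library, 2 called Gm29013, 2 called Gm10718 and none called Gm10719 or Tlr1, with limma adjusted p of up to 0.136, 0.101, 0.143 and 0.136. Tlr1, a receptor for bacterial lipopeptides, was listed at 5545 and 5200 with OSCA-40 and at 8921 and 8225 with OSCA-32.

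Genes of immune, muscle and fat cells gave no limma call. No member was called among 4 tested neutrophil, 4 macrophage, 4 B cell, 6 T and NK cell, 8 skeletal muscle and 5 adipocyte genes, and their medians lay between -0.15 and 0.10. An unadjusted p under 0.05 was found for 1 muscle gene, 1 adipocyte gene and 0 of the immune cell genes. S100a9, a defining neutrophil gene, was listed at 0 in the 4 tumour libraries. Cd68, a macrophage marker, was listed at 0 in each OSCA-40 library and at 1 and 0 with OSCA-32. Cd3d, a subunit of the T cell receptor complex, was listed at 41 and 32 against 64 and 75, in mice that lack mature T cells (0.13 ± 0.13, limma adjusted p = 0.684). Cd3e, of the same complex, was listed at 1 and 0 against 3 and 4, so the defining T cell genes did not stand at like levels.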

How the data were processed

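Per the labels' protocols, exosomes were enriched from serum by ExoQuick, their RNA was extracted by SeraMir, and a stranded SMARTer pico-input kit gave the libraries. Kallisto 0.43.0, Trimmomatic 0.33.0 and FastQC 0.11.5 are named in the submitters' processing notes, as are CanFam3.1 and GRCm38.p5. The deposited values are whole-number scores. Although the table calls them counts, the libraries reach nearly equal totals and the values do not rise with transcript length, so they were treated as TPM-like and no count test was run. Whether they were rounded or shortened is not given in the sources used here. No depth, interval or floor can be had from them.

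Genes that reached 10 in 2 or more libraries were tested on log2(scaled value + 1) with limma 3.58.1 under R 4.3.3, in 1 fit of all 8 libraries with a mean per group, 4 residual degrees of freedom and a variance trend. Scaling was an unweighted trimmed mean of log ratios over tested mouse genes (30% of ratios and 5% of levels trimmed at each end) to the first week 0 library. Adjustment was over all 7872 mouse and canine genes. Shares and gene numbers were compared by exact permutation tests. Names and coordinates come from GENCODE M21 (GRCm38), which matched 31171 of 31300 mouse identifiers; the canine identifiers have no name in the tables used here. Near-identical copies were sought among mouse genes only, with BLAST 2.17.0. The fit was tested on simulated data with independent noise for each gene. These data held no reads shared between copies, so they are no test of that.

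The genes, lists and tests were chosen with earlier results of these data known. Named were the 12 higher and 12 lower called mouse genes with the largest difference, an established symbol (no Gm or LOC numbers, Rik or clone names, or pseudogene symbols in -ps) and no overlap between the lines, up to 3 genes of each of 30 lists, the 8 highest mouse genes, and 2 higher and 2 lower canine genes. Some of the list genes that did not pass are left out.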

Additional observations from a re-analysis of the deposited data

How the results depend on the processing

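For the mouse genes, where 61 were called higher and 74 lower, leaving out 1 library gave 21 to 33 higher and 12 to 103 lower; for the canine genes, 67 and 2, it gave 28 to 51 higher and 2 lower. Other settings (higher and lower mouse, then higher and lower canine) gave 14 and 4516, and 41 and 67, with library totals alone, and 118 and 500, and 807 and 56, without a filter on low values. A mean of at least 50 gave 83 and 85, and 52 and 4. A pseudocount of 4 gave 78 and 80, and 102 and 2, and no variance trend 14 and 31, and 63 and 2. With only the 4 libraries compared they were 17 and 13, and 72 and 2. A replicate block gave 35 and 42 mouse and 56 and 2 canine calls. The replicate numbers share only a number: the labels state no pairing, and the correlation of same-numbered libraries was 0.006 between the lines and -0.057 to 0.006 over all pairs of groups. Median-of-ratios scaling, scaling on both species and a pseudocount of 0.25 kept each count within 1.5 times. Of the 135 mouse calls, 25 to 64 were shared when 1 library was left out.

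With library totals alone, Gm10719 (-0.78), Gm10718 (-0.72), Tlr1 (-0.68) and Pecam1 (-0.21) turned sign; summed with copies, chosen after seeing the data, mt-Co2 (0.10) and mt-Co1 (0.040) did, and 57 mouse genes were higher and 53 lower. The cause was not tested beyond these settings. Of 39 named called genes, 8 were called without each of the 8 libraries: Tmsb4x, Hba-a2, Speer4c, H2-Q4, Wapl and 3 canine genes, ENSCAFG00000030616, ENSCAFG00000031490 and ENSCAFG00000031012. None changed sign without a library. Bcam, U2af2, B2m, Zfp451, Pecam1, mt-Nd1, mt-Co1, Gm10719 and Tlr1 lost the call without any 1 of them.

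Of the share and number of canine genes, the difference in share was 24.4 to 26.7 percentage points without 1 library and 9.40 without the 4 highest canine genes, and the difference in genes was 695 to 840 without 1 library, 120.5 at a minimum of 5 and 23.5 at a minimum of 10. Without mitochondrial, haemoglobin and structural RNA genes the share differed by 25.6 points, and over genes at 0 without a graft the number differed by 870.5. Unknown depth and whole-number values limit all low genes, and 2 libraries a group limit every test.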

Other observations

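Several larger gene families of the mouse gave no limma call between OSCA-40 and OSCA-32. Of all 7655 tested mouse genes 1.76% were called, and 1143 had an unadjusted limma p under 0.05. With so few members tested, the absence of a call is no result about a family. None of 22 tested olfactory receptor genes, 6 vomeronasal type 2 receptor genes and 18 defensin genes was called, and an unadjusted p under 0.05 was found for 1, 0 and 4 of them. Their medians were 0.06, 0.01 and -0.33, beside -0.01 over all mouse genes. None of 7 tested histone genes was called by limma either, of which 2 had an unadjusted p under 0.05, and the highest of them was Hist2h2aa1, listed at 12 and 14 against 9 and 4 (2.05 ± 0.44, limma adjusted p = 0.0682). Among 17 tested genes of hypoxia and glycolysis the median was 0.28, with 0 limma calls and 1 unadjusted p under 0.05. Of 3 tested genes of the unfolded protein response 0 were called by limma, and 0 had an unadjusted p under 0.05. Of 15 tested actin cytoskeleton genes Tmsb4x alone was called, with a median of 0.07.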
